A study of Homo sapiens with 4 samples.

Results

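Messages for DNA mismatch repair genes and for MGMT were examined in HEK293 cells, a line derived from human embryonic kidney that carries pieces of adenovirus DNA. The set held 7 genes, MLH3, MSH3, MSH6, PMS1, PMS2, EXO1 and MGMT, out of 17217 genes that could be named on the array. They were chosen by name, and their probes were found by matching the RefSeq accession in each probe name to a gene. All 7 genes were found, with 8 targets and 24 of the 71998 probes, since EXO1 had 2 targets and every target had 3 probes. The samples were 4 arrays of 1 group, each hybridised with RNA from a separate culture plate of untreated cells at confluence, so no comparison between conditions could be made. HEK293 is a single transformed line, and the plates are repeats of that line and not different donors.

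Mismatch repair removes errors that a DNA polymerase leaves behind the replication fork. MutS proteins find the error, MutL proteins are recruited and some of them nick the new strand, an exonuclease removes the stretch that holds the error, and the replication machinery fills the gap. MSH6 and MSH3 are alternative MutS subunits, MSH6 for single mismatches and short loops and MSH3 for longer loops. PMS2, PMS1 and MLH3 are alternative MutL subunits, and EXO1 is the exonuclease. MGMT works alone. It takes alkyl groups off guanine onto one of its own cysteines, and mismatch repair acts on the mispairs that such guanines form where MGMT is missing.

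Each probe value was a log2 fluorescence intensity. A gene's level was the log2 of the mean of its 3 probes, averaged over its targets. Detection followed the study's rule, in which the mean plus 2 SD of seminal protein genes on an array forms the baseline of that array. The distance of a gene is its level minus the baseline, and genes with a mean distance above 0 over the 4 arrays were counted as detected. The baselines of replicates 1 to 4 were 9.47, 9.94, 10.69 and 10.32 log2 units, so that replicate 3 had the highest. Every probe binds with its own strength, so that the distances of different genes do not rank the amounts of their messages.

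Of the 7 genes, 6 were detected, and MLH3 was not. The same rule called 52.7% of all 17217 named genes. The 6 genes lay above the baseline on each of the 4 arrays, as 45.0% of all genes did, and MLH3 lay below it on each. A one-sided limma test of the distance against 0, adjusted over all 17217 genes, also called the 6 genes and 45.9% of all genes. The test gave every gene the same standard error of 0.35 log2 units, because its prior degrees of freedom came out infinite. All genes of an array share its baseline and move with it, so their tests are not independent. Adjusted p-values are given only for some genes that were not called or whose call changed with the setting. With 4 arrays, 0.0625 is the smallest p that an exact one-sided sign-flip test allows.

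**Figure D1:**
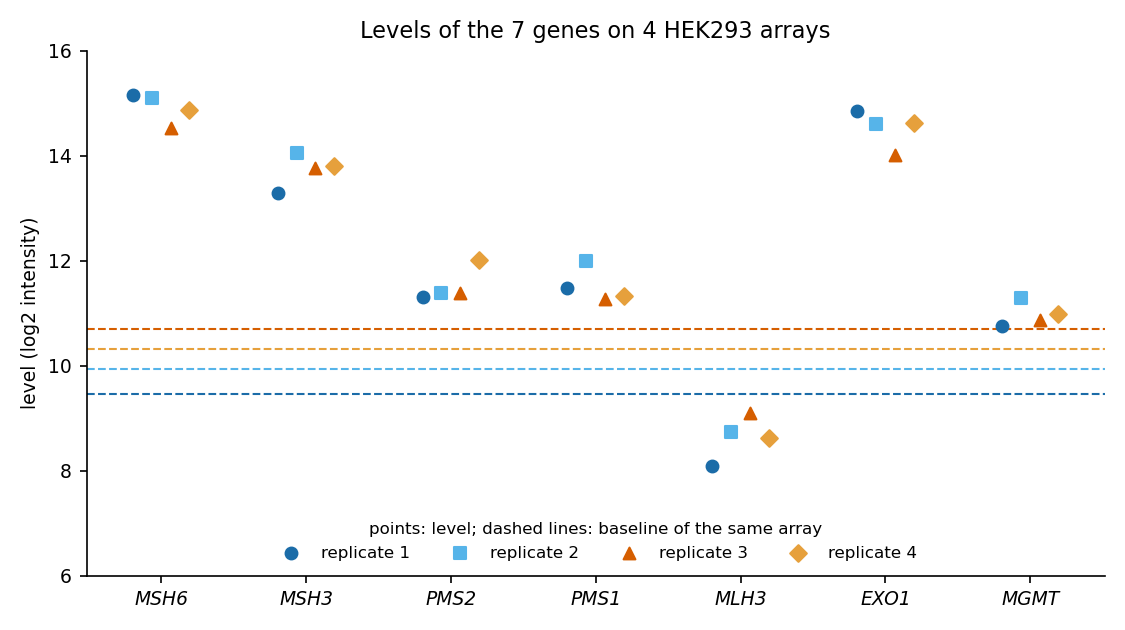
The level of each gene in log2 intensity is plotted on each of the 4 arrays, with the baseline of the same array as a dashed line of the same colour. MSH6, MSH3 and EXO1 lie far above all 4 lines, PMS2, PMS1 and MGMT lie closer to them, and MLH3 lies below them.

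Among the MutS genes, MSH6 had levels of 15.15, 15.10, 14.52 and 14.86 log2 units on replicates 1 to 4. Replicate 3 was the lowest, and the whole range was 0.63 log2 units. The mean distance of MSH6 to the baseline was 4.80 ± 0.80 log2 units (SD, n = 4), above the spread between arrays. Its single probes lay 1.73 log2 units apart in their mean levels, and each of their 12 values was above the baseline. On replicate 3 MSH6 was 0.52 log2 units below the mean of the other arrays. The probes did not share this drop, since 1 probe differed by 0.02 while the others were 0.95 and 1.26 log2 units lower. The 1421 genes with levels of 14 to 16 on the other arrays had a median change of -0.15 log2 units on replicate 3. The current gene table places the end of MSH6 over the end of FBXO11 by 3182 bases. The labelling step copied double-stranded cDNA and so kept no strand, and signal from the overlap cannot be told apart. FBXO11, a subunit of a ubiquitin ligase, stood at 3.70 ± 0.74 log2 units above the baseline (SD, n = 4).

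MSH3 had levels of 13.29, 14.05, 13.76 and 13.80 log2 units on replicates 1 to 4. Replicate 1 was the lowest and replicate 2 the highest. Its mean distance was 3.62 ± 0.45 log2 units (SD, n = 4), and all 12 probe values were above the baseline.

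As a point of contrast, MSH4 and MSH5 encode the MutS pair that works in meiotic crossing over. MSH4 lay at 6.22, 6.28, 6.94 and 6.65 log2 units, which put it 3.58 ± 0.22 log2 units below the baseline (SD, n = 4). MSH5 lay at 12.83, 13.12, 13.28 and 13.59 log2 units, with a distance of 3.10 ± 0.35 (SD, n = 4). Of this meiotic pair, MSH5 was thus called on all 4 arrays and MSH4 on none.

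Among the MutL genes, PMS2, which carries the nicking activity of the main complex, had levels of 11.32, 11.38, 11.39 and 12.01 log2 units. Replicate 4 stood above the other arrays. The mean distance was 1.42 ± 0.51 log2 units (SD, n = 4, limma adjusted p = 6.93e-05), above the spread between arrays. Its 3 probes spanned 1.98 log2 units, against a median span of 1.48 over all named targets. The probe with the highest number in its name lay at 0.86 and 0.36 above the baseline on replicates 1 and 2 and at -0.66 and -0.42 on replicates 3 and 4, while the other probes were above it throughout. PMS2 has a family of near-identical pseudogene copies, and the probe sequences were not used here, so signal from those copies cannot be told apart.

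PMS1, a MutL subunit with a less well defined part in repair, had levels of 11.48, 12.00, 11.27 and 11.33 log2 units. Replicate 2 was the highest. The mean distance was 1.41 ± 0.74 log2 units (SD, n = 4, limma adjusted p = 7.77e-05). All 12 of its probe values were above the baseline. Its distance was 2.01 and 2.06 on replicates 1 and 2 and 0.58 and 1.00 on replicates 3 and 4. The baselines of replicates 3 and 4 were higher, and the mean level of PMS1 was also 0.44 log2 units lower there. Over all genes the median absolute difference in level between these array pairs was 0.38. On replicates 3 and 4 alone the mean distance was 0.79 (limma adjusted p = 0.0472), and on replicates 1 and 3 alone 1.29 (limma adjusted p = 0.052). For PMS2 the value on replicates 1 and 3 alone was 1.27 (limma adjusted p = 0.0551).

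Both PMS genes start close to a gene that runs the other way. The stretches between the starts are shown because each lies directly before a mismatch repair gene and its neighbour. Shared promoter activity was not tested. They are RefSeq sequence of build GRCh38.p14, read along the strand of the PMS gene, with CpG dinucleotides in capitals. The PMS2 stretch is chr7:6009107-6009271 on the minus strand and the PMS1 stretch is chr2:189784340-189784449 on the plus strand.
PMS2-AIMP2: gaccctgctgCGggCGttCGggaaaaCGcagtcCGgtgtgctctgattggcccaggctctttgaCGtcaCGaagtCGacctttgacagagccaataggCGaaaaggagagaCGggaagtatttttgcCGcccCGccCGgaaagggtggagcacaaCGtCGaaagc
PMS1-ORMDL1: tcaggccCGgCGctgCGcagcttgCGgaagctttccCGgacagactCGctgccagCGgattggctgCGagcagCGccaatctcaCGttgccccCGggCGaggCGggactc

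The starts of PMS2 and AIMP2 lie 166 bases apart and those of PMS1 and ORMDL1 111 bases apart. AIMP2, a scaffold protein of the aminoacyl-tRNA synthetase complex, stood 4.71 ± 0.60 log2 units above the baseline (SD, n = 4). ORMDL1, a regulator of sphingolipid synthesis, stood at 0.17 ± 0.77 log2 units (SD, n = 4, limma adjusted p = 0.615), within the spread between arrays and above the baseline on 2 of 4 arrays. RSPH10B, which lies at the other end of PMS2, was at -0.54 ± 0.73 log2 units (SD, n = 4), and AKAP19 beyond PMS1 was at 0.48 ± 0.60 (SD, n = 4, limma adjusted p = 0.182). Genes next to the PMS genes were therefore called in 1 case and not in the other cases by the limma test.

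MLH3, whose protein is best known from meiotic crossing over and has a minor part in mismatch repair, had levels of 8.08, 8.73, 9.11 and 8.62 log2 units. These were the lowest levels of the set on each array. The distance was -1.38, -1.21, -1.58 and -1.71 log2 units on replicates 1 to 4, with a mean of -1.47 ± 0.22 (SD, n = 4). None of its 12 probe values reached the baseline, and the nearest was 0.30 log2 units below it on replicate 2. Its probes lay 1.78 log2 units apart. Whether the MLH3 message was scarce or its probes responded weakly was not tested. In RNA from whole cultures, fewer cells with a message and less of it per cell cannot be told apart.

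The baseline rested on 10 seminal control genes, of which SPATA5 (now AFG2A) at 9.97 and SPATA13 at 9.72 log2 units had the highest mean levels. With olfactory receptor genes, a family taken as silent in such cells, as controls MLH3 stood 0.61 log2 units above the baseline (limma adjusted p = 0.0181), and without SPATA5 and SPATA13 it stood 0.86 above (limma adjusted p = 0.00200). The call for MLH3 thus depended on which control genes set the baseline. Its neighbours EIF2B2, a translation initiation factor subunit, and ACYP1, an acylphosphatase, had distances of 2.96 ± 0.90 and 1.54 ± 0.78 log2 units (SD, n = 4 for each).

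**Figure D2:**
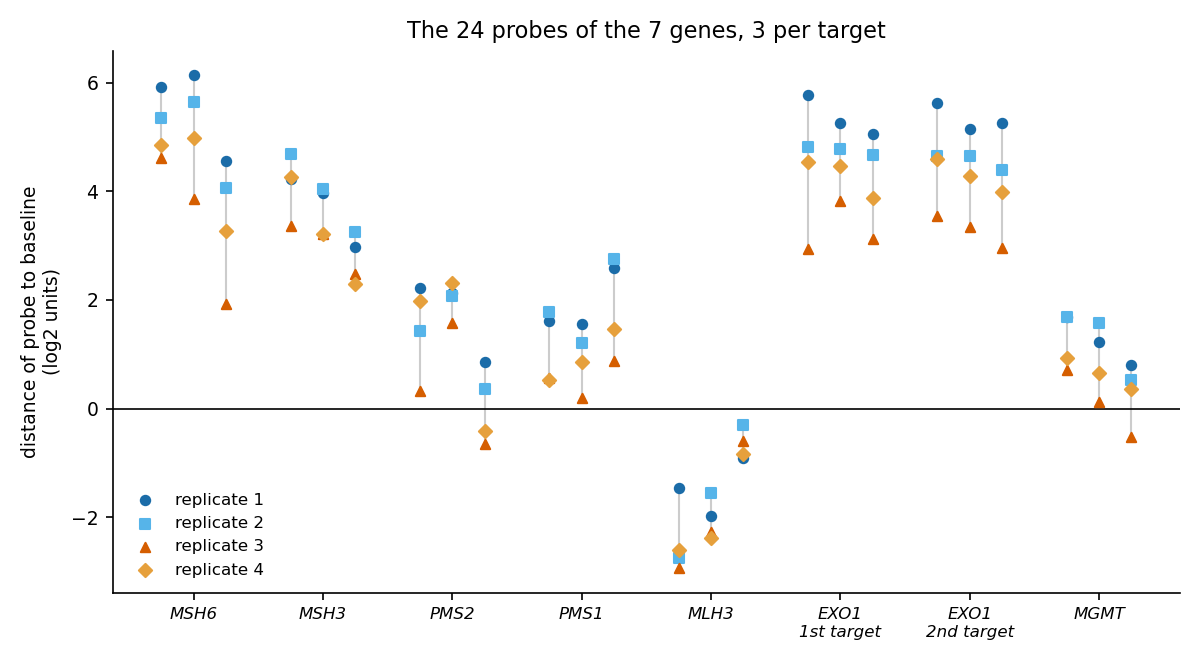
The distance of each of the 24 probes to the baseline of its array is plotted in log2 units, with 1 column per probe and 1 point per array. The 12 values of MLH3 are all below 0, and for PMS2 and MGMT 2 values and 1 value are below 0, all from the last probe of the gene.

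EXO1, the exonuclease that removes the mispaired strand, had levels of 14.85, 14.60, 14.01 and 14.63 log2 units. Replicate 3 was the lowest, by 0.68 log2 units against the mean of the other arrays. The mean distance was 4.42 ± 0.85 log2 units (SD, n = 4), above the spread between arrays, and all 24 values of its 6 probes lay above the baseline. With all 4 arrays brought to 1 distribution the gap of replicate 3 was still -0.58 for EXO1 and -0.42 for MSH6.

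The 2 targets of EXO1 stand for different transcript records and carry the same numbers, 2076, 2395 and 2759, in their probe names. Probes of equal number may be a repeat measurement within an array, but the probe sequences were not used here and their identity was not checked. The targets had mean levels of 14.56 ± 0.36 and 14.49 ± 0.36 log2 units (SD, n = 4 for each). On the same array, paired probes differed by a median of 0.17 log2 units over 12 comparisons, from 0.05 to 0.61. The largest difference was on replicate 3. A single EXO1 probe differed between 2 arrays by a median of 0.39 log2 units. Over the 22 genes with such paired targets these medians were 0.24 within an array and 0.50 between arrays.

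MGMT had levels of 10.75, 11.29, 10.88 and 10.99 log2 units on replicates 1 to 4, the smallest range of the set at 0.54. Replicate 2 was the highest. The distance was 1.28, 1.36, 0.19 and 0.67 log2 units, with a mean of 0.87 ± 0.55 (SD, n = 4, limma adjusted p = 0.0146). Of its 12 probe values, 11 lay above the baseline, and the exception was 1 probe on replicate 3. Without replicate 2 the distance was 0.71 and the limma adjusted p was 0.114. On replicates 3 and 4 alone it was 0.43 (limma adjusted p = 0.249), against 1.32 on replicates 1 and 2 alone (limma adjusted p = 0.00483). With these array pairs as a random block the limma adjusted p over all 4 arrays was 0.0482. When single control genes were left out, 7 of the 10 gave an adjusted p between 0.0531 and 0.0586. MGMT was thus detected with each array left out, while its limma call was close to the threshold.

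Methylation of CpG dinucleotides near the start of MGMT is the well known way in which the gene is silenced in tumours and cell lines. Methylation was not measured here. The bases before the start of MGMT are shown beside those of MLH3, the gene of the set that was not detected, because they differ most in CpG content. Each stretch holds the 250 bases before the start in RefSeq, build GRCh38.p14, read along the gene, with CpG dinucleotides in capitals. They are chr10:129466991-129467240 on the plus strand for MGMT and chr14:75051468-75051717 on the minus strand for MLH3.
MGMT: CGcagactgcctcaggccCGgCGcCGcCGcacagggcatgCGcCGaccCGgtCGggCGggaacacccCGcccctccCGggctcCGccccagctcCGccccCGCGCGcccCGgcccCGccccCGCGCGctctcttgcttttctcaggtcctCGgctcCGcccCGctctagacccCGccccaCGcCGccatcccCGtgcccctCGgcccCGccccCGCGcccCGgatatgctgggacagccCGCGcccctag
MLH3: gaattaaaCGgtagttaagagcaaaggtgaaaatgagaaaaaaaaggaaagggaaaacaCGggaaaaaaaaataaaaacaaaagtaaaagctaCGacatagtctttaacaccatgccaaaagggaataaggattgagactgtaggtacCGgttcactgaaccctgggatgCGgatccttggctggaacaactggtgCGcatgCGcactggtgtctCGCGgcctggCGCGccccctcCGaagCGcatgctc

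The MGMT stretch holds 36 CpG dinucleotides and the MLH3 stretch 13. In windows of 250 bases before to 50 bases after the start, MGMT held 45, more than 96.6% of 27326 promoter windows, and MLH3 held 22, more than 62.6% of them. The median window held 14. The other genes fell between, with 40 for PMS1, 39 for MSH6, 37 for MSH3, 33 for EXO1 and 24 for PMS2.

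The same windows were searched on both strands for short motifs, each counted on its own whether or not it overlapped another. The GC box, GGGCGG, bound by Sp1, is in 44.5% of all windows. It occurred 8 times for MGMT, 5 times for MSH6, 4 times for MSH3, 2 times for PMS2 and 1 time each for EXO1 and PMS1, and was not found for MLH3. The E2F motif TTTCCCGC, in 1.65% of windows, was found for MSH6, and the E2F motif TTTGGCGC, in 0.659%, for MSH3. The NRF1 motif, in 1.37% of windows, was found for MLH3. CCAAT, in 35.7% of windows, was found 3 times for PMS2, 2 times for PMS1 and 1 time for MSH6, and no window of the set held TATAAA (12.0%) or the ETS motif CCGGAAG (10.6%).

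The later steps of mismatch repair use proteins of DNA replication. A list of 17 repair synthesis partners, most of them such genes, was set beside the 7 genes. Of these, 15 were detected, all on all 4 arrays and all called by limma, beside the 52.7% of all genes detected. Their median distance was 3.47 log2 units, against 0.26 over all genes. The sliding clamp PCNA stood at 4.58 ± 0.72 log2 units above the baseline (SD, n = 4). The clamp loader genes RFC1 to RFC5 were all detected, from RFC3 at 1.00 ± 0.44 to RFC2 at 4.45 ± 0.65 (SD, n = 4 for each). The polymerase delta genes were all detected as well, from POLD4 at 1.44 ± 0.94 to POLD2 at 4.75 ± 0.76 (SD, n = 4 for each). LIG1, the ligase that seals the repaired strand, stood at 3.80 ± 0.49 (SD, n = 4). The list and its counts also included 2 genes that are not part of the nuclear replication machinery. These were SSBP1, a mitochondrial protein, at 3.38 ± 0.86 and HMGB1, a chromatin protein, at 4.00 ± 0.87 (SD, n = 4 for each).

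The exceptions were in replication protein A, which coats the gap while it is open. RPA1 and RPA2 stood at 5.04 ± 0.75 and 4.27 ± 0.52 log2 units (SD, n = 4 for each). RPA3, the smallest subunit of the same complex, lay below the baseline on all 4 arrays, at -1.99, -2.91, -1.99 and -2.75 log2 units. Whether the RPA3 message was absent or its probes responded weakly was not tested. RPA4, a variant of RPA2, was at -1.49 ± 0.79 (SD, n = 4) and below the baseline on all 4 arrays.

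**Figure D3:**
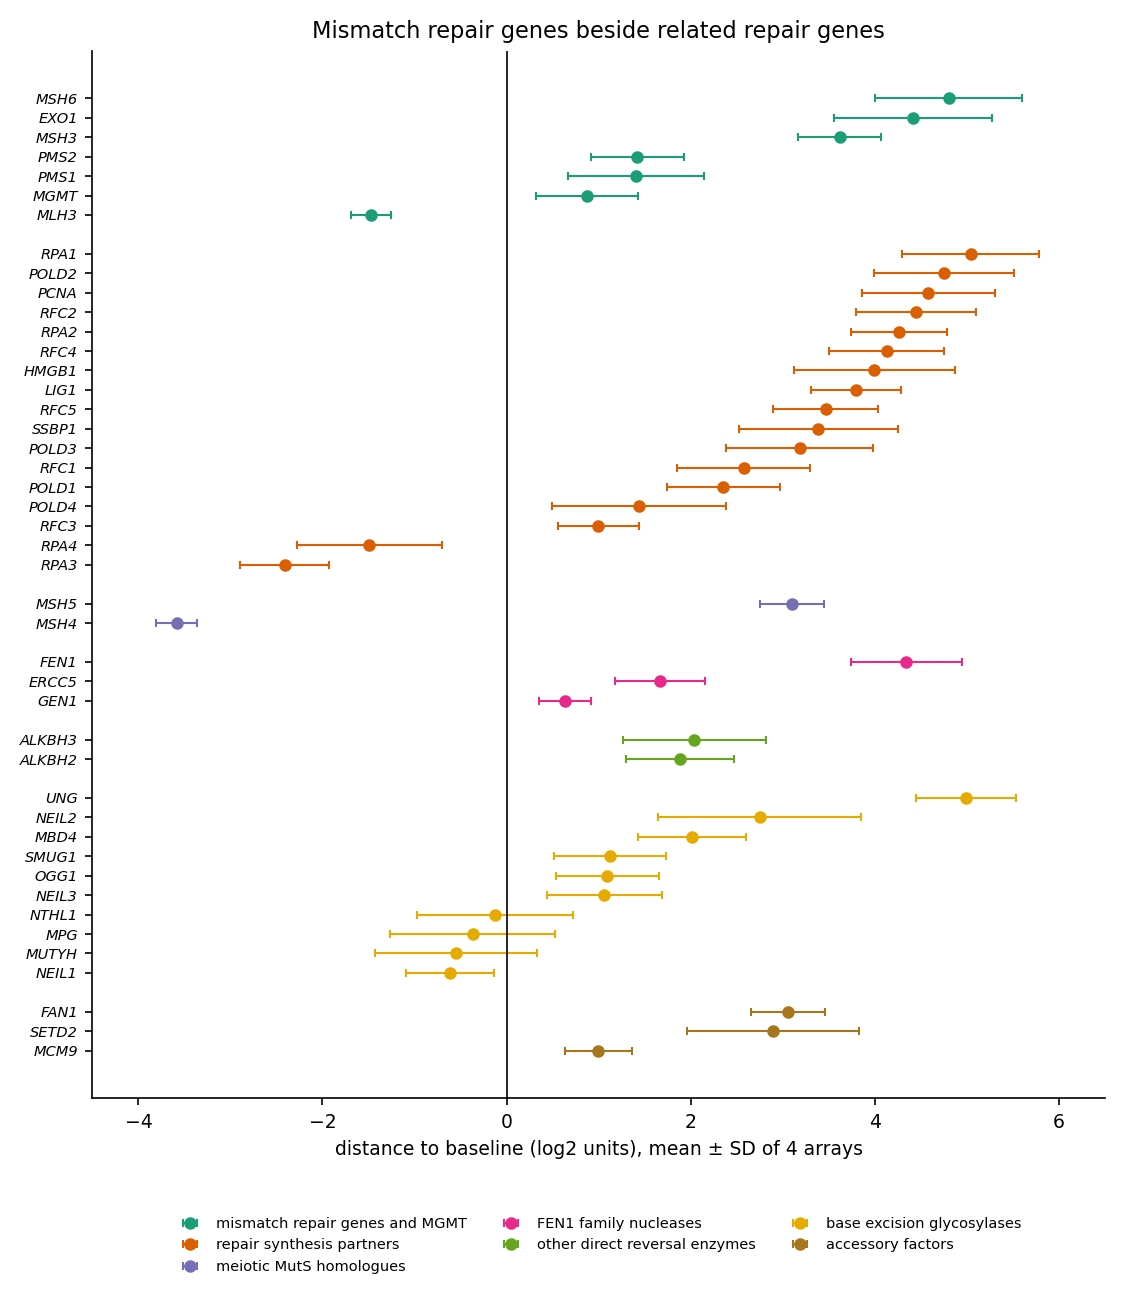
The mean distance to the baseline in log2 units is plotted for each gene with its SD over the 4 arrays, grouped by role. All repair synthesis partners other than RPA3 and RPA4 lie above 0, and MLH3 and MSH4 lie below 0 among the MutL and MutS genes plotted.

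Related enzymes gave further points of reference. FEN1, the flap endonuclease of the same nuclease family as EXO1, stood at 4.34 ± 0.60 log2 units and ERCC5 at 1.67 ± 0.49 (SD, n = 4 for each). GEN1 of that family lay above the baseline on all 4 arrays at 0.64 ± 0.28 (SD, n = 4), but the limma test did not call it (adjusted p = 0.0749). ALKBH2 and ALKBH3, which like MGMT reverse alkyl damage directly, stood at 1.89 ± 0.59 and 2.04 ± 0.78 (SD, n = 4 for each). Of 10 matched DNA glycosylases, which open base excision repair, 6 were detected, a share near the 52.7% of all genes, with UNG at 4.99 ± 0.54 (SD, n = 4), and TDG was not matched. MUTYH, which removes adenine paired with oxidised guanine, was at -0.55 ± 0.88 (SD, n = 4), within the spread between arrays. All 3 accessory factors were detected, against 52.7% of all genes, with the nuclease FAN1 at 3.06 ± 0.40, the histone methyltransferase SETD2, whose mark MSH6 binds, at 2.90 ± 0.94 and the helicase MCM9 at 1.00 ± 0.36 (SD, n = 4 for each).

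The arrays as a whole were alike, with Pearson's r across genes from 0.949 to 0.977 between pairs, where genes are not independent replicates. As checks of the rule, 20 of 20 reference genes, 0 of 7 blood cell markers and 0 of 5 liver markers were detected. Of 7 fibroblast and endothelial markers 1 was detected, the collagen gene COL1A1 at 0.37 ± 1.19 log2 units (SD, n = 4), within the spread between arrays and above the baseline on 2 of them. Of 12 kidney markers, WT1 and LRP2 were detected and the others were not, against 52.7% of all genes detected. LRP2 lay above the baseline on all 4 arrays. WT1 lay above it on 3 of 4 arrays and at -0.64 log2 units on replicate 3. Of 7 neuronal cytoskeleton markers 5 were detected, against 52.7% of all genes. Some genes split the cultures into pairs. The neurofilament gene NEFM lay 4.10 and 2.40 log2 units above the baseline on replicates 1 and 3 and at -1.62 and -2.24 on replicates 2 and 4. The level on replicates 1 and 3 minus that on replicates 2 and 4 was 5.13 for NEFM and 1.76 for COL1A1. For the neurofilament genes NEFL and NEFH it was 0.24 and -1.01. The mismatch repair genes and MGMT showed no split of the size of NEFM. Their levels on replicates 1 and 3 were lower than on replicates 2 and 4 by 0.08 for MLH3 up to 0.40 for MSH3, while the median absolute difference over all genes was 0.35.

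**Figure D4:**
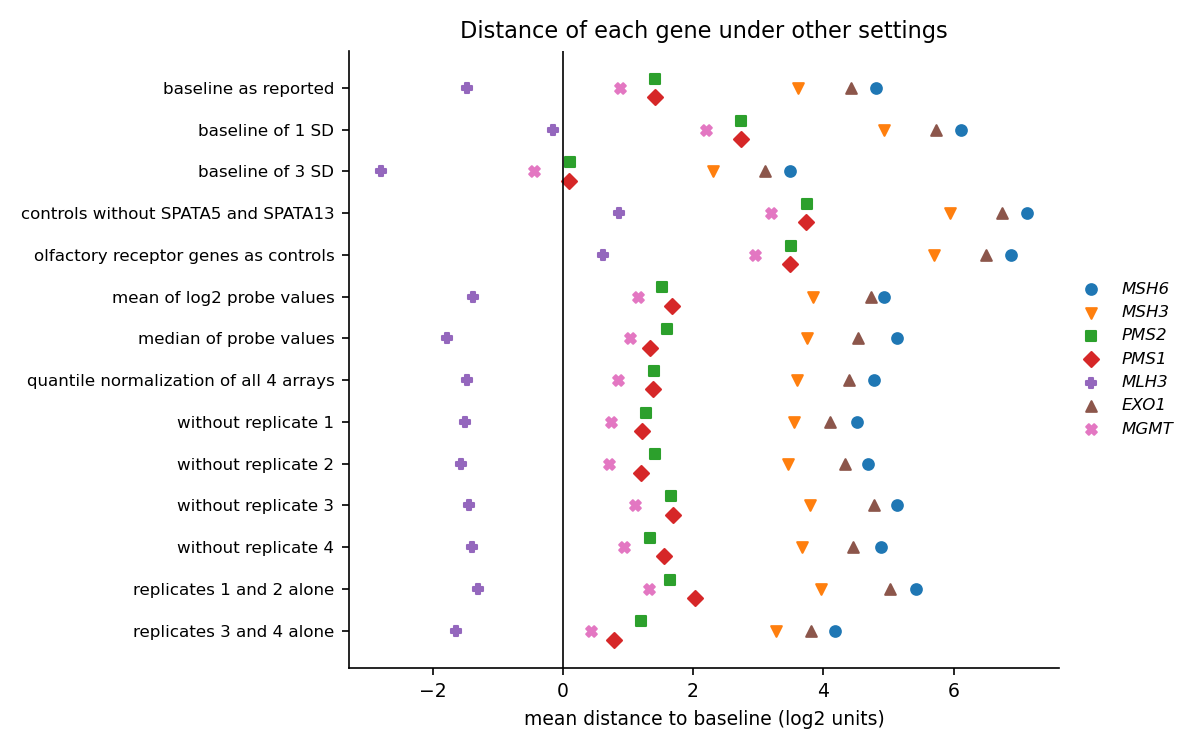
The mean distance of each gene in log2 units is plotted for the reported baseline and for other baselines, probe summaries and subsets of arrays, 1 row each. MSH6, EXO1, MSH3, PMS2 and PMS1 lie above 0 in every row, PMS2 and PMS1 by only 0.10 and 0.09 with a baseline of 3 SD. MGMT falls below 0 with a baseline of 3 SD, and MLH3 rises above 0 with olfactory receptor controls and without SPATA5 and SPATA13.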

How the data were processed

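RNA of 4 HEK293 cultures was copied from an oligo(dT) primer into double-stranded cDNA, labelled with Cy3 and hybridised in 1 colour to NimbleGen arrays designed on HG18. The authors deposited 1 log2 intensity per probe and array. The submitters' processing notes name RMA, and a background correction is not given in the sources used here. Sorted values agreed within 0.01 at 99.97% of ranks for replicates 1 and 2 and 99.99% for replicates 3 and 4, but at 1.23% between replicates 1 and 3, as if each pair had been quantile normalized on its own. Accessions were matched without versions to RefSeq genes of GRCh38.p14, which named 19125 of 24000 targets. Of 11 control genes, 10 were matched. Distances were tested with limma 3.58 in R 4.3, one-sided, with Benjamini-Hochberg adjustment at 0.05 over 17217 genes. The procedure was run on simulated data with independent noise, in which genes without signal lay well below the baseline. That run does not test false calls close to the baseline or a baseline error shared by genes. The number of arrays limits the precision. The replicates are separate plates of 1 line.

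The members, the gene lists and the motifs were chosen with earlier results of these data known. Named genes are the members, genes of the lists and neighbours less than 2000 bases away, of which 1 is not reported here. For genes with several promoter windows the most upstream start was used. Alternatives were other baselines, control genes, probe summaries, normalization and subsets of arrays or probes.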

Additional observations from a re-analysis of the deposited data

Results flagged for a closer look

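PMS2 had 1 array away from the rest. Its level was 12.01 log2 units on replicate 4, against 11.32 to 11.39 elsewhere, and the gap took up 0.893 of the whole range, past the critical value of Dixon's test. For the distance of PMS2 to the baseline the same share was 0.649, which was not past it. This was 1 of 15 levels, distances and baselines looked at, and chance marks about 1 in 20.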

How the results depend on the processing

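Replicates 1 and 3 or 2 and 4 alone, single control genes left out, single probes left out and array pairs as a random block were tried after the data had been examined. For counts and the baseline, 110 alternative values stayed within 1.5 times (counts) or 1 SD (baseline) of the reported value and 8 moved further. The counts were too near the size of their lists to rise that far, and the loss of 1 gene still counted as staying. Single probes were left out only for the 7 genes, so this could not change the count of repair synthesis partners. The baseline was 8.79 log2 units with 1 SD, 11.42 with 3 SD, 7.78 without SPATA5 and SPATA13, 8.02 with olfactory receptor genes, 9.27 without AFG2A alone and 9.45 without SPATA13 alone. Of the 7 genes, limma called 3 with a baseline of 3 SD and 3 on replicates 1 and 3 alone. With each replicate left out in turn the baseline ran from 9.91 to 10.32, and limma called 5 to 6 of the 7 genes. Each time 6 of the 7 genes and 15 repair synthesis partners were detected. The distance of MGMT turned to -0.44 with 3 SD. That of MLH3 turned to 0.86 without SPATA5 and SPATA13 and to 0.61 with olfactory receptor genes. Among the distances of single genes 206 kept sign and side of the threshold, and 15 lost significance, 11 of them for MGMT, whose adjusted p ran from 1.43e-14 to 1. A lower or higher baseline moves all distances together by construction, and the cause was not tested for the other changes. No paired analysis was possible because the design holds a single group. With replicates 1 and 2 and replicates 3 and 4 as random blocks, the estimated correlation within a pair was 0.34, limma called 44.3% of all genes and 6 of the 7 genes.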
